A study of Mus musculus with 9 samples.

Results

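Taar7b, Taar7d, Taar7e and Taar7f are 4 close copies of an olfactory receptor gene and are described here by name, as 4 of the 24421 genes with raw counts and 4 of the 14 olfactory Taar genes. They were measured by RNA sequencing of the whole main olfactory epithelium (MOE), the sheet of nasal tissue that holds the olfactory sensory neurons (OSNs), in mice at postnatal day 14. The 9 libraries were 3 wild-type (WT), 3 heterozygous (TAAR enhancer 2 +/-, het) and 3 homozygous (TAAR enhancer 2 -/-, homo) libraries, with no treatment. Enhancer 2, located between Taar6 and Taar7a, was deleted by CRISPR-Cas9 editing, the study kept 1 line carrying the deletion, and the mice compared were littermates. The labels give C57BL/6 as the strain, whereas the study describes its mouse lines as being of mixed C57BL/6J and 129 background. The labels do not give the sex of the animals or say what a replicate number stands for, and the methods state that males and females were used. P-values therefore measure the spread between these libraries.

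Trace amine-associated receptors (TAARs) are G protein-coupled receptors that detect volatile amines. An OSN usually expresses a single receptor gene from 1 of its alleles, so the RNA level of a receptor gene in whole tissue follows both the number of neurons that chose it and the RNA per neuron, and these cannot be told apart in bulk tissue. Most TAAR neurons lie in the dorsal part of the epithelium. Of the members, the study lists Taar7b as ventral, Taar7d as both dorsal and ventral, and Taar7e and Taar7f as dorsal. Enhancers in receptor clusters act on several genes of the cluster, and the comparison of genotypes asks how far each gene depends on the element.

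In mm10 (GRCm38) the 4 genes lie on the plus strand of chromosome 10, each annotated as 1 protein-coding exon of 1077 bases. Taar7b (ENSMUSG00000095171) runs from 23999939 to 24001015, Taar7d (ENSMUSG00000095569) from 24027222 to 24028298, Taar7e (ENSMUSG00000100689) from 24037614 to 24038690 and Taar7f (ENSMUSG00000100950) from 24049510 to 24050586. The 6.76 kb interval between Taar6 and Taar7a, which contains the deleted element, ends at 23992404. The start codons lie 7.54, 34.8, 45.2 and 57.1 kb from that end. Taar7a, the fifth protein-coding copy, lies between this interval and Taar7b on the minus strand, and the unprocessed pseudogene Taar7c-ps lies between Taar7b and Taar7d.

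How alike the copies are bears on every value, because reads from identical stretches cannot be assigned to 1 copy. Over the 1077 bases the 6 pairs of members were identical at 93.6% to 95.4% of positions, and their 358-residue proteins at 89.9% to 93.9% of positions. In bases Taar7e and Taar7f were the closest pair, with 50 differing bases. The first 90 coding bases are shown to give the scale of these differences, from the GENCODE M21 transcripts. Capitals mark a base that differs from 1 base shared by the other 3 copies.
Taar7b: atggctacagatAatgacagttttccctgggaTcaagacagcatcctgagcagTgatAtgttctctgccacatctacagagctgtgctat
Taar7d: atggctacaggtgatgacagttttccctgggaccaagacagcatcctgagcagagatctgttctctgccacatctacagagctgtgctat
Taar7e: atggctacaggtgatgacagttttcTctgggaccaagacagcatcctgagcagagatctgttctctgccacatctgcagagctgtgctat
Taar7f: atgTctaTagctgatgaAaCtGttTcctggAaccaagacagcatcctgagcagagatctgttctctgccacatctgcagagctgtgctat
Of 50-base windows of Taar7b, 59.6% occurred in no other annotated mouse gene. The share was 70.5% for Taar7d, 46.1% for Taar7e and 48.7% for Taar7f. Taar7e and Taar7f shared 43.1% of their 50-base windows with each other, and still 18.3% of 150-base windows. Taar7b shared 26.8% of its 50-base windows and 3.56% of its 150-base windows with Taar7a. How the counting handled reads that map to several genes is not stated in the sources used here. Counts of single copies are therefore uncertain, most for Taar7e and Taar7f, and the sum of the 4 genes is given beside them.

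The bases around the annotated starts are shown because the copies differ more there than in their coding sequences. Each window, from RefSeq (GRCm38.p6), holds 250 bases before the annotated start and 50 after it. The annotated start is the start codon in all 5 copies, so the windows hold the bases in front of the coding exon and need not hold a transcription start. Capitals mark the start codon and every TATAAA on either strand.
Taar7b (chr10:23999689-23999988, plus strand): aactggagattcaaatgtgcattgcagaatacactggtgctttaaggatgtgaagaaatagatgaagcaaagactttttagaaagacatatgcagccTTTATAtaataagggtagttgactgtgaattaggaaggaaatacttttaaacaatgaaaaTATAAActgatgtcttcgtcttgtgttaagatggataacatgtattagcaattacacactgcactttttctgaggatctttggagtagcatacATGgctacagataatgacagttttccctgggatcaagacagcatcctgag
Taar7d (chr10:24026972-24027271, plus strand): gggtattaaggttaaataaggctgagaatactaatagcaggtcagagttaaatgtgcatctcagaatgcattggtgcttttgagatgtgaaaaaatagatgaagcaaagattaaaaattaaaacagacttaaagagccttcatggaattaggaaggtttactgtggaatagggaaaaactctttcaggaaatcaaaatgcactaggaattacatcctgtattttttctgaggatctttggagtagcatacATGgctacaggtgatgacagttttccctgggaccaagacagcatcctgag
Taar7e (chr10:24037364-24037663, plus strand): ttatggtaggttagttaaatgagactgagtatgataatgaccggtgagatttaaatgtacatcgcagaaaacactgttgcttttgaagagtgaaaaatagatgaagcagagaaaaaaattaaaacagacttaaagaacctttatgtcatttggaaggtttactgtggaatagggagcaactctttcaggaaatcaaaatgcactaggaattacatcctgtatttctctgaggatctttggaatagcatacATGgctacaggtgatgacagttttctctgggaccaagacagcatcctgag
Taar7f (chr10:24049260-24049559, plus strand): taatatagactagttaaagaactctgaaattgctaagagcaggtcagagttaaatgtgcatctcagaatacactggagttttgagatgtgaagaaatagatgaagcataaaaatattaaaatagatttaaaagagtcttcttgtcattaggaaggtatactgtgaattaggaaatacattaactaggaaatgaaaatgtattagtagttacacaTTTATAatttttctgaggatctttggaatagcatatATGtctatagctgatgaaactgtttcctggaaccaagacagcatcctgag
Taar7a (chr10:23993432-23993731, minus strand): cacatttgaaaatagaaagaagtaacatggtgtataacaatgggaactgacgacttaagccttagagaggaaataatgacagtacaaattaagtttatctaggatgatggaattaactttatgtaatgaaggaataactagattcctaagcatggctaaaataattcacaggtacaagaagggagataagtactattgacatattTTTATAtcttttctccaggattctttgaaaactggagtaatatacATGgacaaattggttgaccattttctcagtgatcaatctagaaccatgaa
In a gapped alignment of the 250 bases in front of the start codon, Taar7d and Taar7e were identical at 83.4% of aligned columns, Taar7d and Taar7f at 77.2% and Taar7e and Taar7f at 73.2%. Taar7b matched those 3 genes at 53.6% to 56.4%, and Taar7a matched the 4 members at 44.1% to 49.0%, where a gapped alignment finds many matches in any sequence rich in A and T. TATAAA occurred at 2 places in the Taar7b window and at 1 in the windows of Taar7f and Taar7a, and was not found for Taar7d and Taar7e. It was present in 13.6% of the 32544 distinct windows of all genes. TAATTA, a core of homeodomain binding sites, and CCCNNGGG, a core of Ebf binding sites, were searched on both strands and were in none of the 5 windows, against 5.29% and 13.7% of all windows.

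Total counts per library ranged from 20527992 to 32262005. Normalized counts are the raw counts divided by 1 size factor per library, as deposited, and a gene was called where the edgeR quasi-likelihood test gave a Benjamini-Hochberg adjusted p under 0.05 over 19775 genes and the fold change was over 1.5. The deletion removes no gene and was not checked in these counts. All 6 markers of mature OSNs were detected in every library, with summed levels from 150433 to 172092 normalized counts. The 3 libraries of replicate number 1 differed from those of numbers 2 and 3. With genotype and number 1 as terms of the fit, 1769 genes (8.95% of those tested) passed the threshold for the number. This term is pooled over the genotypes, and numbers 2 and 3 were not singled out in the same way. The main fit has genotype as its only term, so its SEs and intervals include this spread. Results that rest on the number 1 libraries are given with and without them.

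In WT mice the 4 genes together held 41.4% ± 6.80 of the counts of the 14 olfactory Taar genes (SD, n = 3). Mean levels were 122 ± 32.8 normalized counts for Taar7b, 115 ± 23.0 for Taar7d, 111 ± 26.7 for Taar7e and 80.2 ± 36.6 for Taar7f. The annotated coding exons have the same length, but the share of unique windows differs between the copies and the handling of shared reads is not stated, so the order of these levels is uncertain. The WT libraries of neighbouring genes in this order overlapped, but within each library Taar7f was the lowest of the 4 genes, in 9 of 9 libraries over the genotypes. The highest was Taar7b in 4 libraries and Taar7d in 5.

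The homozygous deletion left 3 of the 4 genes without a detectable difference from WT, and the fourth, Taar7f, had a lower mean level that did not pass the threshold either. As a share of WT in mean normalized counts, Taar7b stood at 103%, Taar7d at 107%, Taar7e at 80.6% and Taar7f at 44.3%, and their sum at 87.3%. Taar7a stood at 19.6% in the same libraries. In homo against WT none of the 4 genes was called by edgeR, DESeq2 or limma-voom, where 0.0202% of all genes were called by edgeR: these were Taar3, Taar6, Taar7a and Taar9, all lower in homo. At an unadjusted edgeR p under 0.05 there was 1 member, Taar7f, and 682 of all 19775 genes.

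Taar7b, the member nearest to the deleted element, had 84.3, 134 and 146 normalized counts in WT replicates 1, 2 and 3. It had 96.8, 118 and 145 in het and 96.9, 139 and 140 in homo. The ranges of the 3 genotypes overlapped, and the number 1 library was the lowest in each. The log2 fold change was 0.05 (SE 0.26, 95% confidence interval −0.53 to 0.63) in homo against WT, which corresponds to 69.2% to 155% of WT, and −0.02 (SE 0.26) in het against WT. In homo against het it was 0.07 (SE 0.26). With a term for replicate number 1 the homo against WT value of Taar7b was 0.07 (edgeR p 0.655). Homo stood at 115% of WT within number 1 and at 99.7% over numbers 2 and 3.

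Taar7d had 89.3, 123 and 133 normalized counts in WT, 105, 134 and 147 in het, and 95.8, 154 and 120 in homo. Here too the genotypes overlapped and the number 1 library was the lowest in each. The log2 fold change was 0.10 (SE 0.24, interval −0.43 to 0.64) in homo against WT, 0.16 (SE 0.24) in het against WT and −0.05 (SE 0.24) in homo against het. The interval of Taar7d in homo corresponds to 74.1% to 155% of WT. With a term for replicate number 1 the homo against WT value of Taar7d was 0.10 (edgeR p 0.489). Homo stood at 107% of WT both within number 1 and over numbers 2 and 3.

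Taar7e had 80.6, 124 and 129 normalized counts in WT, 100, 95.4 and 113 in het, and 81.0, 98.5 and 89.8 in homo. The homo libraries lay within the lower part of the WT range. The log2 fold change was −0.31 (SE 0.21, interval −0.78 to 0.17) in homo against WT, −0.12 (SE 0.21) in het against WT and −0.19 (SE 0.21) in homo against het. Within replicate number 1 Taar7e stood at 100% of WT in homo, and over numbers 2 and 3 at 74.3%. WT replicate 1 moved the homo against WT value of Taar7e. Without this library the log2 fold change was −0.48, with an edgeR p of 0.0306 before and 0.773 after adjustment.

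Taar7f, the member farthest from the deleted element, had 39.7, 90.2 and 111 normalized counts in WT, 69.3, 84.0 and 95.7 in het, and 38.8, 36.2 and 31.8 in homo. The homo libraries were lower than every het and every WT library, but WT replicate 1 was above homo replicate 1 by less than 1 normalized count. The log2 fold change was −1.17 (SE 0.34, interval −1.95 to −0.40) in homo against WT, a level 2.26-fold lower. Its edgeR p was 0.00762 before adjustment, rank 38 of 19775 genes, and the adjusted p was 1. Under the alternatives tried, the adjusted p lay between 0.509 and 1. Of the 4 genes, Taar7f was the only one whose homo and WT libraries did not overlap, which held for 5.69% of all genes in either direction.

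The Taar7f difference was not even over replicate numbers. Within number 1, homo stood at 97.7% of WT, from 34 and 32 raw counts, whose exact Poisson 95% intervals of 23.5 to 47.5 and 21.9 to 45.2 counts cover counting error only. Over numbers 2 and 3, homo stood at 33.8% of WT, with 40 and 34 raw counts against 115 and 119. Het replicate 1, with 58 raw counts, stood at 175% of WT replicate 1. The log2 fold change of Taar7f in homo against WT was −1.47 without WT replicate 1 and −1.56 over numbers 2 and 3 only, a setting chosen after seeing the data, with edgeR adjusted p of 0.509 and 0.525. With a term for replicate number 1 it was −1.11 (edgeR adjusted p 0.705). Whether the genotype difference itself depends on the replicate number was not tested.

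**Figure D1:**
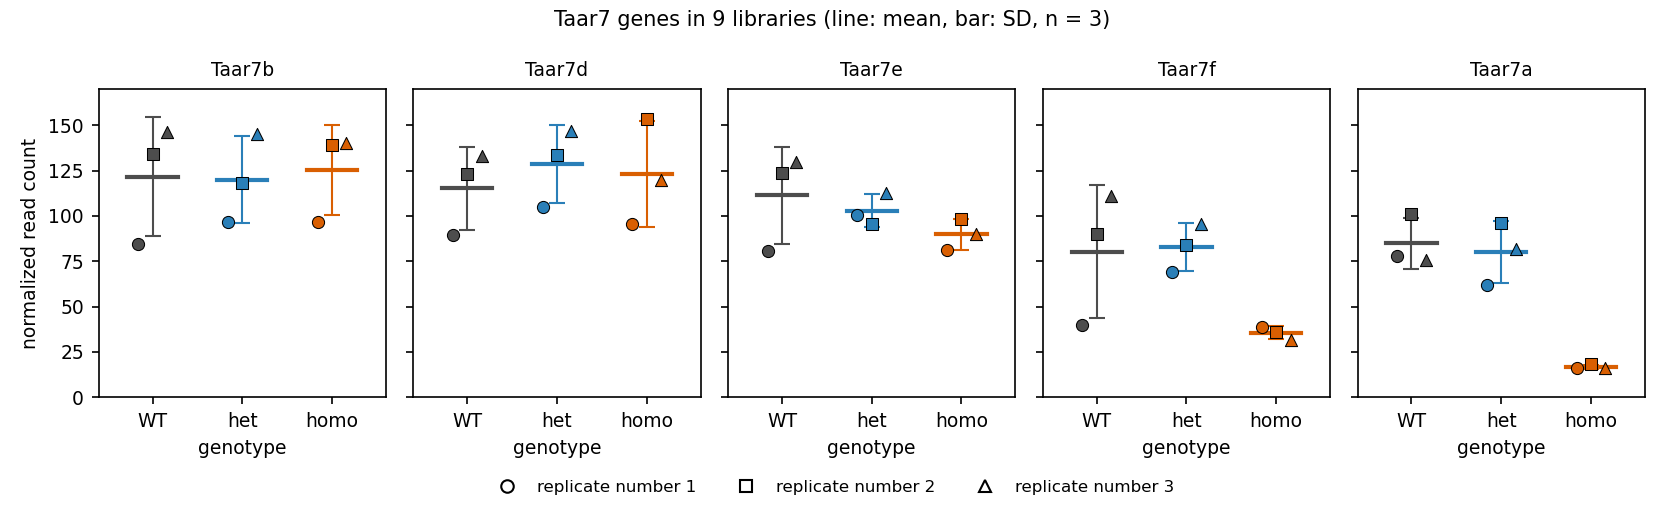
Normalized read counts (y axis) of the 4 Taar7 genes and of Taar7a by genotype (x axis) in the 9 libraries, with 1 point per library, shapes for replicate numbers, lines for means and bars for SD (n = 3). The genotypes overlap for Taar7b, Taar7d and Taar7e, the homo libraries of Taar7f sit between 31.8 and 38.8, just under the lowest WT library at 39.7, and those of Taar7a sit between 15.9 and 18.1.

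In het against WT, which asks whether loss of the element from 1 chromosome changes expression, the members stood at 98.8% (Taar7b), 112% (Taar7d), 92.4% (Taar7e) and 103% (Taar7f) of WT. None of the 4 genes was called by edgeR, DESeq2 or limma-voom, and the share over all genes was 0%. None reached an unadjusted edgeR p under 0.05, against 253 of all genes. For Taar7f the log2 fold change was 0.04 (SE 0.33, interval −0.71 to 0.79), a wide interval that includes a fall to 61.1% of WT. None of the members had het and WT libraries that did not overlap, against 3.95% of all genes.

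In homo against het, 0 of the 4 genes were called by edgeR, DESeq2 or limma-voom, against 0.00506% of all genes by edgeR, which was Taar6 alone. At an unadjusted edgeR p under 0.05 there was again 1 member, Taar7f, and 131 of all genes. The log2 fold change of Taar7f was −1.21 (SE 0.35, interval −1.99 to −0.44), with a p of 0.00640 before adjustment, rank 11 in the edgeR test, and an adjusted p of 1. Its homo libraries lay below its het libraries within number 1 as well as over numbers 2 and 3, and the lowest het library was at 69.3 against 38.8 for the highest homo library. Libraries that did not overlap were found for Taar7f among the members and for 4.15% of all genes. The comparisons of homo with WT and with het share the homo libraries.

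The test over both genotype coefficients, which asks for any difference between the 3 genotypes, called 0 of the 4 genes by edgeR, DESeq2 or limma-voom, against 0.00506% of all genes by edgeR. The edgeR p of Taar7f was 0.0123 before adjustment, the only member under 0.05, against 274 of all genes. Without homo replicate 3 the edgeR p of Taar7f was 0.0525. The other 3 members had values of 0.386 (Taar7e), 0.806 (Taar7d) and 0.959 (Taar7b).

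The sum of the 4 genes does not depend on how counted reads were split among them. It does depend on whether reads shared between copies were counted at all, which is not stated. The sum was 294, 471 and 520 normalized counts in WT, 372, 431 and 501 in het, and 312, 427 and 382 in homo. The genotypes overlapped, with means of 428 ± 119 (WT), 435 ± 64.5 (het) and 374 ± 57.9 (homo; SD, n = 3 each). The fitted log2 fold change of the sum was −0.19 (SE 0.22, interval −0.69 to 0.31) in homo against WT and 0.02 (SE 0.22) in het against WT. With Taar7a added it was −0.39 (SE 0.20, interval −0.84 to 0.07) in homo against WT. Within replicate number 1 the sum of the 4 genes stood at 106% of WT in homo, and over numbers 2 and 3 at 81.7%.

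**Figure D2:**
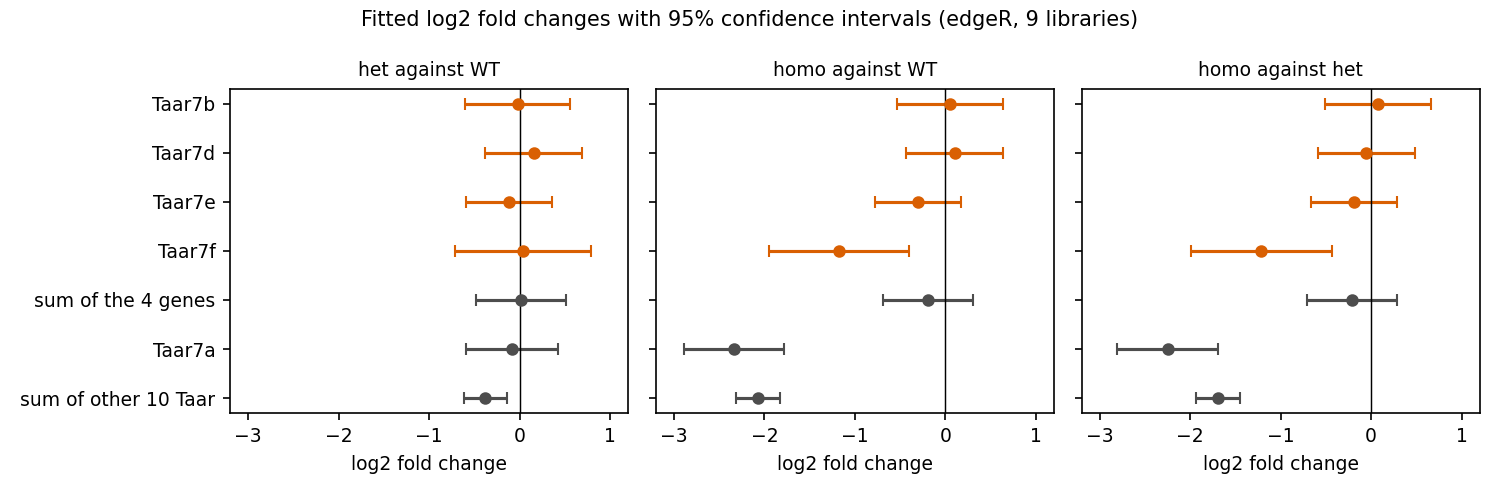
Fitted log2 fold changes (x axis, edgeR on 9 libraries) with 95% confidence intervals for each gene, the sum of the 4 genes, Taar7a and the sum of the other 10 olfactory Taar genes (y axis) in the 3 comparisons. Among the 4 genes, the intervals of Taar7f in homo against WT (−1.95 to −0.40) and in homo against het (−1.99 to −0.44) leave out 0.

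The 4 members differed from Taar7a, the copy between the deleted element and Taar7b. Taar7a had 78.1, 101 and 75.4 normalized counts in WT, 62.2, 96.4 and 81.6 in het, and 15.9 to 18.1 in homo, and its log2 fold change in homo against WT was −2.33 (SE 0.25, edgeR adjusted p 0.0233). Relative to Taar7a, the log2 fold change was higher by 2.39 (SE 0.36) for Taar7b, by 2.44 (SE 0.34) for Taar7d, by 2.03 (SE 0.32) for Taar7e and by 1.16 (SE 0.42, interval 0.33 to 1.99) for Taar7f, with errors that treat the genes as independent. These intervals used a normal quantile and so are narrower than with the t quantile used elsewhere. All 4 intervals lay above 0, and that of Taar7f came nearest to it. In het against WT the 4 intervals of this difference included 0. Taar7a stood at 20.4% of WT within replicate number 1 and at 19.2% over numbers 2 and 3.

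Among the other 10 olfactory Taar genes, 4 were called lower in homo against WT, 0 in het against WT and 1 lower in homo against het. In homo they ranged from 0 counts in each library (Taar8a and Taar8c) to 74.6% of WT in mean normalized counts (Taar2). The floor is 3 counts per library, and in WT Taar8a had only 10, 9 and 6 raw counts and Taar8c 3, 5 and 8. By mean normalized counts Taar7b and Taar7d stood at a higher share of WT than any of the 10, and Taar7f stood within their range. Taar2 was not called either, and its fitted interval of 55.2% to 103% of WT overlapped those of Taar7b and Taar7d. Taar7e, at 80.6%, stood above Taar2 over all libraries and within replicate number 1 (100% against 58.8% of WT), but below it over numbers 2 and 3 (74.3% against 83.7%). Their median log2 fold change in homo against WT was −3.26, against 0.00 over all genes tested. Their sum was 593 ± 16.8 in WT, 456 ± 18.0 in het and 140 ± 8.65 in homo.

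With the other receptors lower, the members made up more of the TAAR transcripts in homo mice. Their share of olfactory Taar counts lay between 33.6% and 45.9% over the WT libraries, between 45.9% and 51.4% over the het libraries and between 70.6% and 74.8% over the homo libraries. The share was higher in homo for Taar7b (11.8% ± 1.84 in WT, 24.3% ± 2.35 in homo), Taar7d (11.2% ± 0.878 and 23.7% ± 2.78) and Taar7e (10.8% ± 1.38 and 17.5% ± 0.682). Taar7f held 4.53% to 9.79% in WT and 6.03% to 8.76% in homo.

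**Figure D3:**
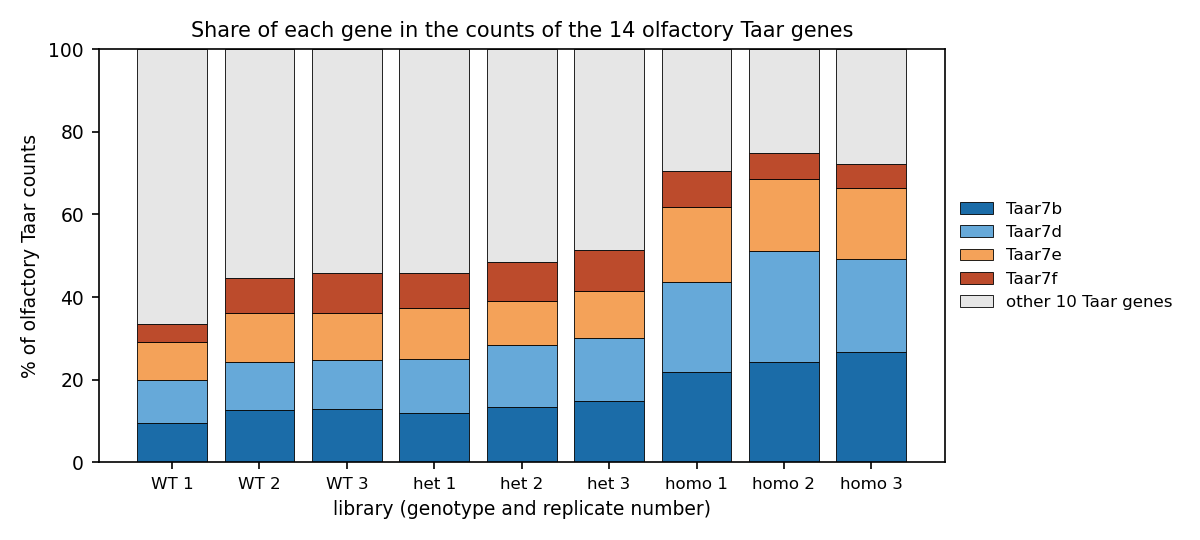
Share of each of the 4 genes in the counts of the 14 olfactory Taar genes (y axis, percent) in each library (x axis), stacked, with the other 10 genes in grey. The 4 genes together fill 33.6% to 45.9% of the bar in WT, 45.9% to 51.4% in het and 70.6% to 74.8% in homo.

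**Figure D4:**
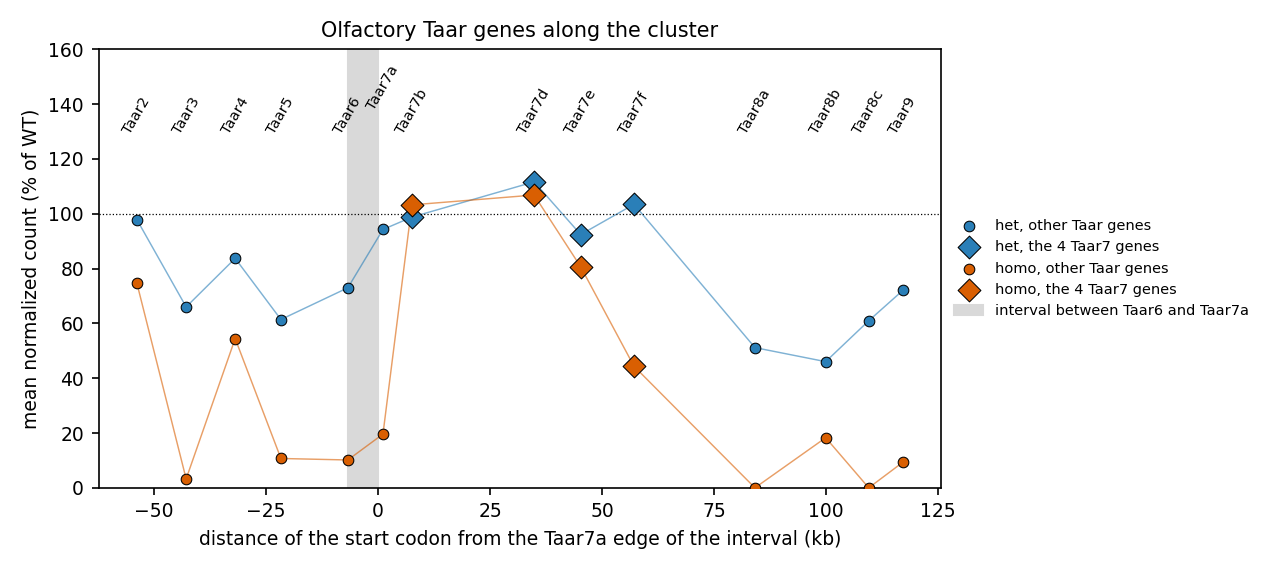
Mean normalized count of each olfactory Taar gene as a percent of WT (y axis) against the distance of its start codon from the Taar7a end of the interval between Taar6 and Taar7a (x axis, kb), for het and homo, with diamonds for the 4 Taar7 genes. In homo the diamonds sit at 103%, 107%, 80.6% and 44.3% of WT in order of distance. Their nearest neighbours sit at 19.6% (Taar7a) on one side and at 0 counts (Taar8a, with 10, 9 and 6 raw counts in WT) on the other.

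The order of the members on the chromosome was nearly that of their homo levels. With growing distance from the deleted element, homo stood at 103% (Taar7b), 107% (Taar7d), 80.6% (Taar7e) and 44.3% (Taar7f) of WT. The next 4 genes, Taar8a to Taar9, stood at 18.3% or less, and of these Taar8a and Taar8c had few counts in WT as well. On the near side, the step was between Taar7a at 19.6% and Taar7b at 103%, whose start codons lie 6.46 kb apart. How reads shared by these copies were counted is not stated. These are 4 neighbouring genes of 1 chromosome, and no test of a trend with distance was made.

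Whether the 4 copies changed unequally was tested on the ratio of each member to the other 3 within a library, which does not depend on depth. The statistic was the between-genotype sum of squares of the log2 ratio. Each exact permutation p is therefore for any difference between WT, het and homo, not for homo against WT alone. Taar7f was at 0.158, 0.237 and 0.272 of the other 3 members in WT, at 0.231, 0.243 and 0.237 in het, and at 0.143, 0.0934 and 0.0921 in homo. All 3 homo libraries were below all WT and het libraries. The log2 ratio was −2.20 ± 0.41 in WT, −2.08 ± 0.04 in het and −3.22 ± 0.36 in homo, and the exact permutation test over all assignments of libraries to genotypes gave p = 0.0321. The smallest p this test can give is 0.00357, and the 4 tests made are unadjusted and not independent, because the ratios share their counts.

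Taar7b moved the other way relative to the other 3. Its ratio was 0.404, 0.398 and 0.392 in WT and 0.354, 0.379 and 0.409 in het. In homo it was 0.451, 0.484 and 0.582 (exact permutation p = 0.0143 over the 3 genotypes). The homo libraries lay above all others, and the log2 ratio was higher than in WT by 0.34. For Taar7d the difference of homo from WT was 0.36 (exact permutation p = 0.0679 over the 3 genotypes). For Taar7e the difference from WT was −0.16 in homo and −0.18 in het (exact permutation p = 0.293 over the 3 genotypes). A ratio within a library shows unequal change among the copies and not which of them changed. When the genotypes were permuted within replicate numbers (a replicate block), the exact permutation p was 0.0833 for Taar7f and 0.0556 for Taar7b, where the smallest possible is 0.0278. Het replicate 1 decided the side of 0.05 for Taar7b, with an exact permutation p of 0.0643 without it. For Taar7f the exact permutation p was 0.05 without het replicate 2, and 0.0679 without homo replicate 2 or homo replicate 3.

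**Figure D5:**
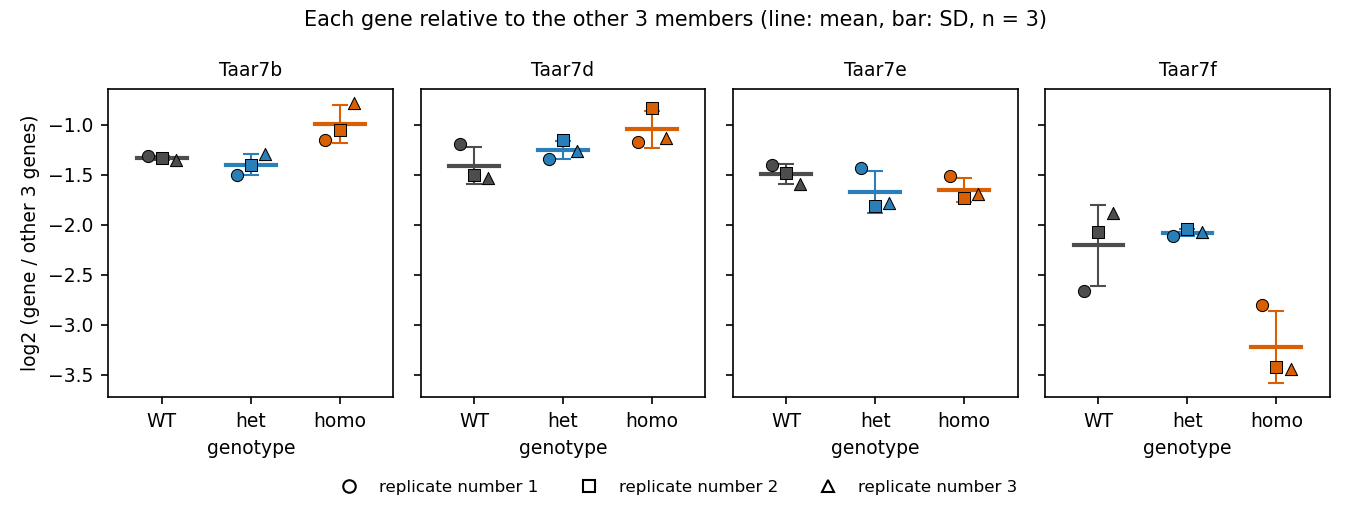
Log2 ratio of each gene to the sum of the other 3 members (y axis) by genotype (x axis) in the 9 libraries, with shapes for replicate numbers, lines for means and bars for SD (n = 3). The homo libraries of Taar7f sit between −3.44 and −2.80, below WT and het, and those of Taar7b between −1.15 and −0.78, above WT and het.

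Replicate number moved with the levels of Taar7b and Taar7d. In the fit with genotype and replicate number 1 as terms, the level in number 1 was 67.7% of that in numbers 2 and 3 for Taar7b (log2 difference −0.56, SE 0.12, edgeR adjusted p 0.0104) and 71.7% for Taar7d (−0.48, SE 0.13, edgeR adjusted p 0.0210). For Taar7e it was 81.4% (edgeR adjusted p 0.162) and for Taar7f 71.0% (edgeR adjusted p 0.185). None of the 4 genes exceeded the 1.5-fold limit, so 0 were called, against 8.95% of all genes. The summed other 10 genes varied by 2.83% to 6.18% (coefficient of variation) within a genotype, but opposite differences can cancel in a sum. Singly, these genes in number 1 ranged from 52.3% (Taar8c) to 182% (Taar8a) of numbers 2 and 3, both from few counts. Taar9 stood at 71.8% (edgeR adjusted p 0.127), close to Taar7d. Some markers of other cells moved with the number too. Of 5 basal and progenitor cell markers (Krt5, Krt14, Trp63, Neurod1 and Neurog1), 3 were called higher in number 1 by edgeR, and their summed level lay between 5094 and 6453 normalized counts in number 1 and between 3113 and 3457 in numbers 2 and 3, with none at 0. Of 5 immature OSN markers 2 were called higher (38672 to 39586 against 28693 to 38853 normalized counts summed), and of 4 respiratory ciliated cell markers 2 (12892 to 14208 against 9101 to 12497). Of 6 mature OSN markers and of 6 zone markers 1 each was called higher, and of 4 gland and secretory cell markers 1 was called lower. No sustentacular or red blood cell marker was called. The part of these cells in the member levels was not tested.

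Over the 9 libraries, as a description over shared libraries, the log2 levels of Taar7b and Taar7d ran together (Pearson r = 0.88), as did those of Taar7e and Taar7f (r = 0.81). Taar7f was as close to Taar7a (r = 0.81), whereas Taar7b and Taar7a gave r = −0.05. Genotype and replicate number are both contained in these values. Among 16155 genes with a mean of at least 1 CPM (a count relative to library size), the genes of most similar pattern to Taar7b were Tbc1d10c (r = 0.99), Bmpr1b (0.98) and Mbl2 (0.98). For Taar7d they were Gnrh1, Olfr1030 and Stxbp5 (r = 0.98 each), for Taar7e Whsc1l1 (0.96), Lcn4 (0.95) and Uso1 (0.94), and for Taar7f Slc30a1, Creb5 and Aste1 (0.92 each). With 9 points and this many genes, high values occur among unrelated genes, and the 3 genes closest to Taar7b and the 3 closest to Taar7d were all lower in replicate number 1 (edgeR adjusted p 0.00141 to 0.0183).

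The listed genes of olfactory transduction and receptor transport, receptor gene choice and zones did not pass the threshold in any of the 3 comparisons. TAARs signal through the olfactory G protein, whose alpha subunit is Gnal, and through the adenylyl cyclase Adcy3 and the channel subunit Cnga2, while Rtp1 and Rtp2 carry receptors to the cell surface. Of 18 transduction and transport genes 0 were called by edgeR, with log2 fold changes in homo against WT from −0.11 (Slc12a2) to 0.23 (Slc24a4) and a median of 0.07, and 0 had an unadjusted p under 0.05. Of 10 factors of receptor gene choice, among them Lhx2, Ldb1 and Ebf1, 0 were called and 0 had an unadjusted edgeR p under 0.05, with log2 fold changes from −0.04 (Lbr) to 0.13 (Ebf1) in homo against WT. Of the 6 zone markers, among them the dorsal markers Nqo1 and Acsm4 and the ventral marker Ncam2, 0 were called and 0 had an unadjusted edgeR p under 0.05, with log2 fold changes from −0.02 (Nfib) to 0.21 (Acsm4).

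Markers of 7 cell types in the dissected tissue were also below the threshold in all 3 comparisons. In homo against WT the median log2 fold change was 0.08 for mature OSNs (6 genes), 0.15 for immature OSNs (5 genes) and 0.21 for sustentacular cells (4 genes). It was −0.14 for respiratory ciliated cells (4 genes) and −0.79 for gland and secretory cells (4 genes, all lower). For basal and progenitor cells it was −0.18 (5 genes), and the keratin Krt14 was the only one of these with an unadjusted edgeR p under 0.05, at a log2 fold change of −0.45 (p 0.0439, adjusted p 1). The summed gland markers lay between 107742 and 277879 normalized counts in WT, between 64535 and 210493 in het and between 97168 and 147121 in homo, with none at 0, and the part of these cells in the member levels was not tested. Of 5 red blood cell markers 1 passed the count filter, Alas2, with a log2 fold change of 0.29.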

How the data were processed

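Directional libraries were prepared from polyA-selected RNA of the whole MOE. The submitters' processing notes name Trimmomatic 0.36. Per the labels and the methods, the authors mapped reads to mm10 (GRCm38) with HISAT2 2.1.0 and deposited raw read counts per gene from featureCounts in Subread 1.6.2. The annotation release, the strand option and the handling of reads that map to several genes are not given in the sources used here. A second deposited table holds normalized counts, a signal the authors computed in DESeq2 1.20.0 with 1 size factor for each library. Sample titles gave genotype and replicate number, and columns were matched to samples by name.

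Raw counts were tested in edgeR 4.0.16 by quasi-likelihood (R 4.3.3, TMM normalization, legacy estimate) on all 9 libraries with genotype as the only term. A minimum of 10 counts over all libraries left 19775 genes, tested two-sided, with Benjamini-Hochberg adjustment over all of them, and the test for any genotype had no fold limit. SEs and intervals of genes and sums came from the fitted model, with t quantiles. Intervals of the differences from Taar7a used a normal quantile, which makes them narrower. A summed row of the members was added to the fit and given without p. The common dispersion of 0.0545 equals a biological coefficient of variation near 23.3%. Before each log2 ratio of a member to the other 3, 0.5 was added to both counts. The edgeR fit and the ratio test were checked on simulated data. Intervals from counts cover counting error only, since the reads carry no molecular identifiers. The genes of like pattern were the 3 with the highest Pearson r of log2 CPM (prior count 2). Alternatives used DESeq2 1.42.0, limma 3.58.1, other scalings, filters and terms, and left out libraries.

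The members and the gene lists (other olfactory Taar genes, transduction and transport, choice factors, zone markers and markers of 7 cell types) were chosen with earlier results of these data known. 1 further marker is not reported here. Named are the 4 members throughout, Taar7a, the genes of like pattern, and list genes past the threshold or at the ends of a range. Same-numbered libraries deviated together between het and WT (r = 0.67, 0.45 and 0.61 over 16156 genes) and between homo and het (0.79, 0.32 and 0.13), but not between homo and WT (0.52, 0.29 and −0.10), with 0.1 as the limit. Between homo and het, different numbers 2 and 3 correlated more (0.59 and 0.52). Positions and coding sequences came from GENCODE M21 and start windows from RefSeq, with Biopython 1.88 for alignments. No protein table was used.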

Additional observations from a re-analysis of the deposited data

How the results depend on the processing

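In all 4 comparisons 0 members were called under every alternative run. The sum of the 4 genes moved by less than the spread between replicates (pooled SD 0.31 on the log2 scale). This spread is wider than the homo against WT value of the sum, −0.19, so it is a loose limit. Over the alternatives, the sum with Taar7a among them, the value ran from −0.39 to −0.04 in homo against WT. In het against WT it ran from −0.17 to 0.17, so its direction changed, and in homo against het from −0.39 to −0.10. The values for which the direction of a single gene changed were near 0 in the analysis given above. With library totals in place of TMM, Taar7b in het against WT was 0.00495. Over replicate numbers 2 and 3 only, chosen after seeing the data, Taar7b in homo against WT was −0.000808 and Taar7f in het against WT −0.16. Leaving out 1 library at a time gave −0.14 to 0.21 for Taar7b in homo against WT, −0.21 to 0.12 in het against WT and −0.057 to 0.23 in homo against het. For Taar7d it gave −0.10 to 0.25 in homo against WT and −0.25 to 0.090 in homo against het, and for Taar7f −0.26 to 0.33 in het against WT. Taar7e in homo against WT ranged from −0.48 to −0.20. Taar7f in homo against WT was negative under every alternative run, from −1.56 to −0.89.

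The ratios of single members depended on settings, and the cause was not tested. The log2 ratio in homo minus WT is the value given here, while each exact permutation p is for any difference between the 3 genotypes. With Taar7a among the copies in the denominator it was 0.61 for Taar7b (exact permutation p = 0.025), 0.63 for Taar7d (exact permutation p = 0.00357, now under 0.05), −0.76 for Taar7f (exact permutation p = 0.0607) and 0.12 for Taar7e (exact permutation p = 0.193), which turned the direction for Taar7e. With the replicate block it stayed at 0.34 for Taar7b (exact permutation p = 0.0556) and −1.02 for Taar7f (exact permutation p = 0.0833). Over replicate numbers 2 and 3 it was 0.42 for Taar7b (exact permutation p = 0.200) and −1.45 for Taar7f (exact permutation p = 0.133), where 6 libraries cannot reach 0.05. Leaving out 1 library at a time, it ranged from 0.23 to 0.41 for Taar7b, from 0.26 to 0.47 for Taar7d (exact permutation p = 0.0143 without WT replicate 1) and from −1.24 to −0.85 for Taar7f. The replicate block gave log2 fold changes of Taar7f of −1.11 in homo against WT and −1.19 in homo against het, and changed no call of a member.

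By Spearman in place of Pearson correlation, 2 of the 12 genes of like pattern were again among the closest 3, Tbc1d10c for Taar7b and Creb5 for Taar7f. The number of all genes called in homo against WT, 4 above, was 6 by DESeq2, 1 by limma-voom or with those genotypes alone, 0 over replicate numbers 2 and 3, and 1 to 4 with 1 library left out. In homo against het it was 1 above and 0 to 5 over the alternatives. For any genotype it was 1 above and 0 to 6. With 32 to 40 counts of Taar7f in its lowest libraries, differences of a few counts were not detectable.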
